A study of Mus musculus with 34 samples.

Results

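The 10 genes described here are vessel genes and factors tied to the clarity of the cornea: the growth factor genes Vegfa and Vegfc, the receptor genes Flt1, Kdr, Flt4 and Tek, the endothelial surface genes Emcn, Pecam1 and Cdh5, and the secreted factor gene Angptl7. They were chosen by name, and each was read by the single probe set whose only gene symbol is that gene. All 10 were found among 19938 genes with such a probe set. The series measured whole corneas of wild-type CB6 mice on Affymetrix gene arrays at 12 ages. There were 3 arrays for each of 3 embryonic days (E14.5, E15.5 and E17.5), of 4 postnatal days (P3 and P7, then P14 and P28) and of 2 months, and 2 arrays for each of 6 months, 1 year, 18 months and 2 years. With 1 array of epithelium lifted with dispase at P28 and 1 array of stroma taken by laser capture at P7, there were 34 arrays. No allele or agent was named for any group. Nothing in the labels ties the replicates of an age to different animals, and p-values here reflect only the scatter among arrays, which may be technical.

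The healthy cornea carries no blood or lymph vessels, although the limbus around it, the iris behind it and the eyelids and muscles next to it are vascular. Vessel growth is driven by the ligand VEGF-A, which signals through the receptor VEGFR2 (the product of Kdr), while VEGFR1 (Flt1), above all in its soluble form, binds the ligand and holds it back, and VEGF-C acts through VEGFR3 (Flt4) on lymphatic vessels. The receptor TIE2 (Tek) binds the angiopoietins, and endomucin (Emcn), PECAM-1 (Pecam1) and VE-cadherin (Cdh5) sit on the surface and junctions of endothelial cells. ANGPTL7 is an angiopoietin-like protein of the corneal stroma that has been described as anti-angiogenic.

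The values are intensities deposited by the authors, on a linear scale with 1 value for each probe set on each array, and differences between ages are on the scale of log2(intensity + 16). A call required a difference of at least 1 log2 unit and an adjusted p under 0.05 (limma, Benjamini-Hochberg over 12998 genes tested). Of the 10 genes, 9 lay above their array's median on at least 2 of 32 arrays and entered the test. Flt4 was above the median on 0 of 32 arrays and was not tested with the others. Pecam1 passed on 2 arrays, of E14.5 and E17.5, and Flt1 and Tek on 4 each, all from E14.5 to P3. These genes thus entered through a few arrays of high values. A gene kept through high arrays of an age is favoured to lie higher there in any comparison with that age. Where arrays of different ages are said not to overlap, the share of all genes that separate likewise was not counted. The median intensity of the 32 arrays lay between 188.2 and 240.6, and log2 values of arrays of one age correlated across genes with r between 0.879 and 0.985. A group of 8 probe sets with no gene name read at least 1501 on all 18 arrays up to P14 and at most 12.8 on all 14 later arrays, so what these probe sets mark cannot be told apart from age in any comparison across P14 and P28.

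Vegfa, the ligand gene, was highest at E15.5 and lowest at 18 months. It read 528, 487 and 472 on the E14.5 arrays, 839, 1036 and 937 at E15.5, and 730, 538 and 694 at E17.5. The 3 E15.5 arrays lay above all the others of the series. From P3 to P14 the age means were 522 ± 47.1, 485 ± 98.6 and 458 ± 69.4 (SD, n = 3 each), and P28 gave 256, 177 and 254, below every P14 array. In adult corneas the level went up and down: the means were 353 ± 67.4 at 2 months (n = 3), 206 ± 79.3 at 6 months, 309 ± 73.9 at 1 year, 110 ± 17.0 at 18 months and 352 ± 146 at 2 years (n = 2 each). In the order of the 12 age means, 3 of 11 neighbouring pairs had arrays that did not overlap, namely E15.5 above E17.5, 1 year above P28, and 6 months above 18 months.

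Vegfc, the lymphatic growth factor gene, was highest before birth and declined after it. Its mean was 324 ± 87.6 at E14.5, 393 ± 101 at E15.5 and 467 ± 116 at E17.5 (SD, n = 3 each). It read 253, 171 and 246 at P7 and 183, 199 and 159 at P14. From P28 on the 14 arrays lay between 102 and 188, and 15 of the 18 earlier arrays were above all of them. Among neighbours in the order of the means, P3 above P7 was the only pair whose arrays did not overlap.

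Kdr, the main signalling receptor gene for VEGF-A, was highest at E15.5 and lowest at 18 months, as the ligand gene was. It read 445, 489 and 485 at E14.5, 761, 576 and 994 at E15.5, and 659, 680 and 698 at E17.5. After birth its mean was lower at each age up to P28: 520 ± 80.8 at P3, 410 ± 76.4 at P7, 259 ± 30.1 at P14 and 136 ± 5.52 at P28 (SD, n = 3 each). The P14 arrays, at 287, 264 and 227, lay below all P7 arrays and above all P28 arrays. From P28 on, 1 of the 1 year arrays stood above all others, at 293, and the other read 161, between the 2 months arrays (119, 183 and 153). The arrays of 6 months (78.6 and 78.6) and 18 months (59.8 and 65.4) were the lowest. Over the 12 age means of log2 values, r was 0.92 between Kdr and Vegfa and 0.93 between Kdr and Vegfc, values that share the same arrays and the same division between P14 and P28. The courses of Kdr and Vegfa differed in part. From P3 to P14 the mean of Vegfa went from 522 to 458 and that of Kdr from 520 to 259. At 2 months and 2 years Vegfa had means of 353 and 352, and Kdr 152 and 95.4.

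Flt1 varied less with age. Its values lay between 128 and 351 on the 32 arrays, with the age means running from 265 ± 71.3 at E14.5 to 139 ± 16.1 at P28 (SD, n = 3 each), and the arrays of all 11 neighbouring pairs in the order of the means overlapped. Its age means spanned 0.83 log2 units, below the 1 unit needed for a call (adjusted p = 0.0417). The probe set gives 1 value for the gene, and whether it reads the membrane form or the soluble form is not given in the sources used here.

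Flt4 read between 41.9 and 115 on the whole-cornea arrays, always below the array median. Its age means lay between 69.7 ± 39.2 at 1 year (n = 2) and 104 ± 7.78 at 2 years (n = 2), and all 11 neighbouring pairs overlapped. With no filter, when 19938 genes were fitted, Flt4 was called in none of the 20 tests of limma, of which 1, the step from 1 year to 18 months, had an unadjusted p under 0.05. No course with age can be read for it at these values.

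**Figure D1:**
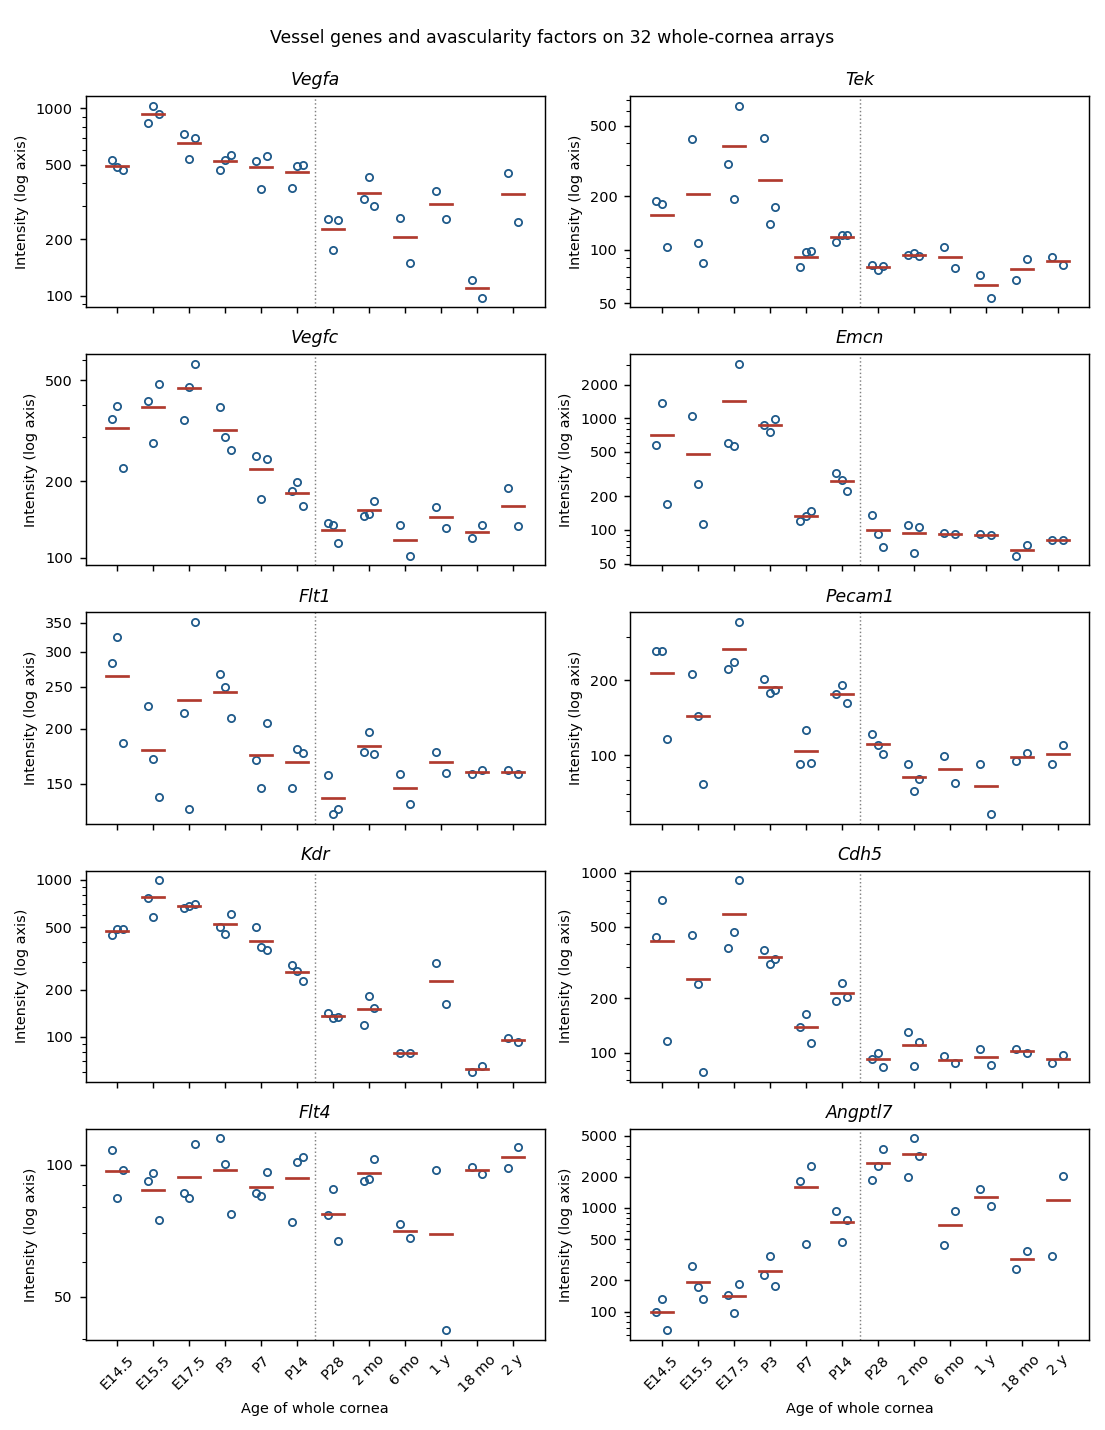
Intensity of the 10 genes (log axis) on the 32 whole-cornea arrays by age. Each circle is 1 array and each bar is the mean of an age, and the dotted line marks the division between P14 and P28. Vegfa peaks at E15.5 with 839 to 1036, Emcn spans 568 to 3078 at E17.5 and stays at 136 or below from P28 on, and Angptl7 is at 273 or below through E17.5 and between 1862 and 4696 at P28 and 2 months.

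The endothelial genes Emcn, Pecam1, Cdh5 and Tek had their highest age means before birth or at P3, low values at P7, and low values again from P28 on. Emcn, the sialomucin of capillaries and veins, read 577, 1364 and 171 at E14.5, 1056, 256 and 113 at E15.5, 601, 568 and 3078 at E17.5, and 863, 755 and 988 at P3. At P7 it read 120, 134 and 147, and none of these arrays overlapped with those of E17.5 or P3. P14 lay higher again, at 323, 280 and 225, and from P28 to 2 years the 14 arrays lay between 58.8 and 136. In bulk tissue, fewer endothelial cells and less RNA per cell cannot be told apart.

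Cdh5, the adhesion molecule of endothelial junctions, read 441, 702 and 116 at E14.5, 452, 241 and 77.8 at E15.5, 383, 466 and 910 at E17.5, and 373, 312 and 332 at P3. It read 139, 164 and 113 at P7, stood at 193, 245 and 204 at P14, and lay between 82.7 and 130 on the later arrays. Pecam1, carried by endothelial cells and some leukocytes, had means of 268 ± 65.5 at E17.5, 188 ± 12.5 at P3, 104 ± 19.3 at P7 and 177 ± 14.9 at P14 (SD, n = 3 each), and between 58.2 and 122 on the later arrays. Tek, the angiopoietin receptor gene, read 188, 181 and 104 at E14.5, 421, 110 and 84.7 at E15.5, 305.5, 194 and 647 at E17.5, and 425, 141 and 174 at P3. It then stayed between 80.0 and 122 at P7 and P14, and at or below 103 on every later array. The P7 arrays of all 4 genes lay below those of P3 and of P14, with no overlap. How many of all genes separate in this way was not counted. The step from P7 to P14, however, called 0 of 12998 genes by limma (0%), and the adjusted p was 0.881 for Emcn, 0.660 for Pecam1, 0.923 for Cdh5 and 0.978 for Tek.

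Angptl7 ran in the opposite direction. It read 99.7, 132 and 65.8 at E14.5, 273, 173 and 133 at E15.5, 143, 96.1 and 185 at E17.5, and 226, 342 and 176 at P3. All 3 P7 arrays were higher, at 1829, 447 and 2522, with a wide spread among them, and P14 read 935, 470 and 774. The level was highest at P28, with 1862, 2516 and 3722, and at 2 months, with 1993, 4696 and 3170. On its array, the gene stood at or below the 54.1 percentile of all single-gene probe sets through E17.5 and between the 91.6 and 98.3 percentile at P28 and 2 months. At older ages the arrays read 438 and 934 at 6 months, 1513 and 1041 at 1 year, 260 and 380 at 18 months, and 341 and 2037 at 2 years. The ratio between arrays of one age was largest at 2 years, and of the neighbouring ages in the order of the means only 6 months and 18 months did not overlap.

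RefSeq's table of transcript starts in the mouse genome (GRCm38.p6) held 8 of the 10 genes. Shown are the 250 bases before a listed start of Emcn and of Angptl7, each 5′ to 3′ on the strand of its gene. Emcn had the widest spread and, from E17.5 to P7, the deepest fall, and Angptl7 was the gene that rose. In RefSeq's gene limits the Angptl7 window ends where the gene begins, and the last bases of the Emcn window lie inside the gene's outer limits. Capitals mark AGGAA or its reverse complement TTCCT, a form of the core letters bound by ETS factors. The endothelial regulators ERG and FLI1 belong to that class of factors.
Emcn, chr3:137340828-137341077, plus strand: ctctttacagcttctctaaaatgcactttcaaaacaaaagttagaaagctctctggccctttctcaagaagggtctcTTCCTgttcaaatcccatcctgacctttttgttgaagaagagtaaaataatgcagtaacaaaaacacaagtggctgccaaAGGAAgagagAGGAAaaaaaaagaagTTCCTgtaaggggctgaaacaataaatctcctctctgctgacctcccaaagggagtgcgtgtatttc
Angptl7, chr4:148500463-148500712, minus strand: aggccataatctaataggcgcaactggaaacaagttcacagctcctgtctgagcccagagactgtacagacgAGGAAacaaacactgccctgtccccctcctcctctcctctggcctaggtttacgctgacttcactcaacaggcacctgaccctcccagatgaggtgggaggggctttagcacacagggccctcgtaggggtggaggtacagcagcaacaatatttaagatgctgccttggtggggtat
This form occurred 4 times in the window of Emcn and 1 time in that of Angptl7, and other forms were not counted. It occurred 2 times each for Flt1 and Tek, 2 and 0 times in the windows of Vegfa, and 0 times for Kdr, Flt4 and Vegfc. Of 32851 windows of the same length, 60.3% held it at least once, so its presence is common. The window of Emcn had 40.8% G and C, and that of Angptl7 54.4%. A match of letters is a description and not evidence of binding.

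The spread between arrays of one age differed among the members. The residual SD on the log2 scale was 0.83 for Emcn, 0.74 for Angptl7, 0.60 for Cdh5 and 0.54 for Tek, above that of 99.2%, 98.8%, 97.7% and 96.7% of the genes tested. It was 0.34 for Pecam1, 0.29 for Flt1, 0.28 for Vegfa, 0.27 for Vegfc and 0.23 for Kdr. At E14.5 replicate 3 was the lowest array for 8 of the 9 tested members and for all 13 tested genes of a list of 22 blood endothelial genes, against 37.4% of all genes tested. Kdr, the exception, read 445, 489 and 485 on these arrays. At E15.5 the highest array was replicate 1 for Emcn, Cdh5, Pecam1 and Tek and for 10 of the 13 endothelial genes, against 24.2% of all genes. For Kdr the highest E15.5 array was replicate 3, where Emcn, Cdh5, Pecam1 and Tek were at their lowest for that age. At E17.5 replicate 3 was highest for 8 of the 9 tested members and 9 of the 13 endothelial genes, against 31.3% of all genes. The endothelial list includes the members Emcn, Pecam1 and Cdh5, so its counts and those of the members share these genes.

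Genes of tissues next to the cornea differed between the same arrays. At E17.5 the 8 tested skeletal muscle genes summed to 32060 and 27099 on replicates 1 and 3 and to 3211 on replicate 2, and the 7 pigment cell genes summed to 7817, 8317 and 14168. At E15.5 the sums were 9340, 1819 and 2338 for muscle and 8305, 3071 and 1348 for pigment genes, so both were highest on replicate 1, as Emcn was. At E14.5 the muscle genes summed to 3797, 5447 and 2729 and the pigment genes to 6763, 3306 and 2569, lowest on replicate 3 for both. At P7 the sums were 1776 to 1926 for muscle and 1127 to 1830 for pigment genes. No gene of the muscle or pigment lists read below 1 on any whole-cornea array, so none was at 0. The part of neighbouring tissue in the level of the endothelial genes was not tested.

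**Figure D2:**
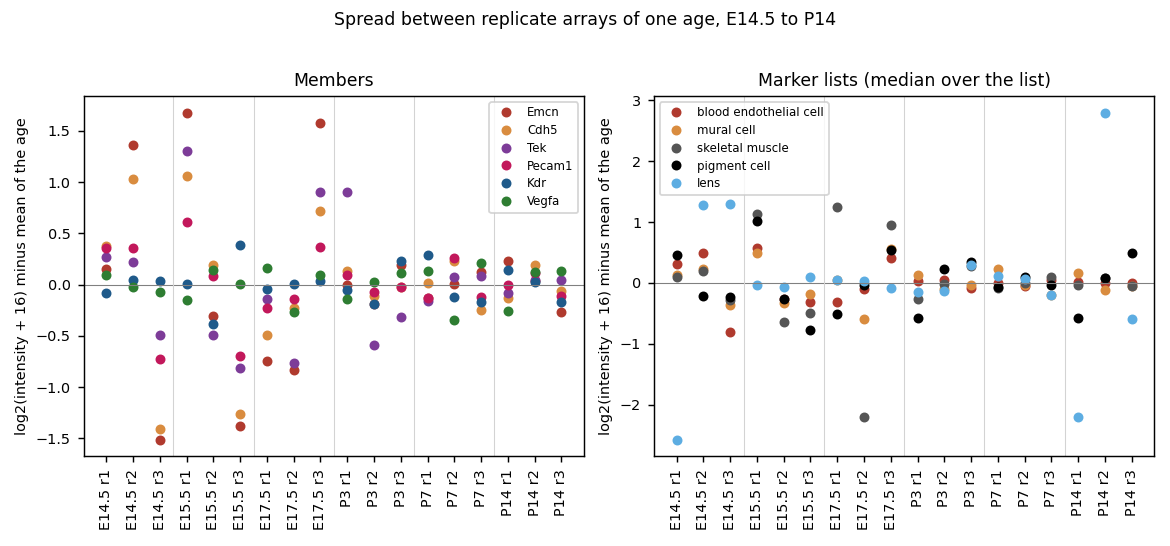
Deviation of each array from the mean of its age, in log2(intensity + 16), for the 18 arrays up to P14. The left panel shows 6 members and the right panel the median of 5 marker lists, with r for replicate. Emcn, Cdh5, Tek and Pecam1 are lowest on replicate 3 of E14.5 and E15.5 and highest on replicate 3 of E17.5, whereas Kdr and Vegfa deviate less at E14.5 and E17.5.

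Before birth, E17.5 was compared with E14.5. None of the 9 tested members was called by limma, against 7.27% of all genes, and 3 of the 9 (Kdr, Vegfc and Tek) had an unadjusted p under 0.05. Tek gave 1.07 log2 units (SE 0.41, adjusted p = 0.0508), and Kdr 0.51 (SE 0.18, adjusted p = 0.0408), below the size needed. Vegfc gave 0.51 (adjusted p = 0.0718) and Emcn 0.95 (SE 0.62, adjusted p = 0.251). Of the wider lists, 4 of 13 blood endothelial genes rose and none fell, with a list median of 0.68 against -0.05 for all genes. The genes that rose were Erg, an endothelial ETS factor, by 2.56, Cd34 by 1.88, Ramp2 by 1.14 and Clec14a by 1.104. The filter kept 13 of 22 listed genes and favours a rise for those kept through high E17.5 arrays. Among 7 mural cell genes, markers of pericytes and smooth muscle, Rgs5, Des and Pdgfrb rose, Des also being a muscle gene. Of 10 anti-angiogenic factor genes 5 rose and 1 fell: Thbs2, a thrombospondin, rose by 4.32, Serpinf1, which encodes PEDF, by 2.51 and Timp3, a protease inhibitor, by 1.21, and Cxcl14, a chemokine, fell by 2.13. The co-receptor gene Nrp2 rose by 1.30. Lists of other cells moved in the same comparison. In the skeletal muscle list 5 of 8 genes rose, with a median of 2.02, in the keratocyte list 6 of 8 (2.39) and in the corneal epithelium list 5 of 8 (2.85), while 9 of 12 lens genes (-4.25) and 3 of 4 red blood cell genes (-5.57) fell. The part of these cells in the values was not tested.

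From E17.5 to P7, a span that includes birth, 5 of the 9 tested members fell, against 2.17% of all genes. Angptl7 rose, against 2.82%, or 4.99% in either direction. Pecam1 and Tek passed the filter partly through E17.5 arrays, which favours a fall from that age. Emcn fell by 2.80 log2 units (SE 0.62, adjusted p = 0.00329), Cdh5 by 1.88 (SE 0.45, adjusted p = 0.00634), Tek by 1.72 (SE 0.41, adjusted p = 0.00581), Pecam1 by 1.23 (SE 0.26, adjusted p = 0.0022) and Vegfc by 1.00 (SE 0.21, adjusted p = 0.00231). For each of these 5 genes all 3 P7 arrays were below all 3 E17.5 arrays, and the share of all genes that do so was not counted. Angptl7 rose by 3.08 (SE 0.55, adjusted p = 4.4e-04), with all P7 arrays above all E17.5 arrays. Kdr gave -0.72 (SE 0.18, adjusted p = 0.00969), below the size needed, Vegfa -0.43 (adjusted p = 0.213) and Flt1 -0.30 (adjusted p = 0.436).

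In the wider lists 7 of 13 blood endothelial genes fell from E17.5 to P7 and none rose, with a median of -1.20 against 0.04 for all genes. The members Emcn, Pecam1 and Cdh5 are among these 7. The filter kept 13 of 22 listed genes and favours a fall for those kept through high E17.5 arrays. Besides Emcn and Cdh5 the largest falls were those of Cd34 (-2.33) and Aplnr, the apelin receptor gene (-2.12). Of the angiopoietin and Tie genes, Angpt1, the activating TIE2 ligand, fell by 3.32, while Angpt2, its context-dependent antagonist, rose by 2.03. Prox1, the lymphatic regulator that the lens also expresses, fell by 1.47, the only call among 4 lymphatic genes. Of 7 mural cell genes, Des fell by 2.68 and Acta2 by 2.17. In the same comparison 6 of 8 skeletal muscle genes fell with a median of -2.83, and 5 of 7 pigment cell genes fell with a median of -2.68. Of the corneal lists, 4 of 8 epithelial genes rose (median 0.94), and the keratocyte list had a median of 0.16.

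The same comparison was also fitted without arrays rich in genes of neighbouring tissue. Without the 2 muscle-rich E17.5 arrays (replicates 1 and 3), Emcn gave -1.97, Cdh5 -1.65 and Tek -0.96 and were no longer called, which left 3 calls. Without the 2 pigment-rich E17.5 arrays (replicates 2 and 3), Emcn gave -2.05, Cdh5 -1.38, Tek -1.58, Pecam1 -1.01 and Vegfc -0.63, and 1 member was called. Either fit leaves E17.5 with 1 array, which is assumed to vary like the other ages. Vegfc, whose fall stood at the threshold of size, was below it without E17.5 replicate 2 (-0.98), without E17.5 replicate 3 (-0.84) and without P7 replicate 2 (-0.84). With an offset of 64 in place of 16, Vegfc (-0.88) and Pecam1 (-0.97) fell short of 1 unit.

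The comparison of P14 with E15.5 gave a different division. Kdr fell by 1.498 (SE 0.18, adjusted p = 3.2e-06), Vegfc by 1.03 (SE 0.21, adjusted p = 0.00127) and Vegfa by 1.02 (SE 0.22, adjusted p = 0.00169), while Angptl7 rose by 1.83 (SE 0.55, adjusted p = 0.0211), so that 3 of 9 fell, against 1.98% of all genes, and 1 rose, against 3.21%, or 5.19% in either direction. For each of the 4 genes the arrays of both ages did not overlap, and the share of all genes that separate likewise was not counted. The endothelial genes were not called. Emcn gave -0.21 (95% interval -1.49 to 1.06), Cdh5 0.03 (-0.90 to 0.96), Pecam1 0.36 (-0.18 to 0.90) and Tek -0.40 (-1.24 to 0.44). The intervals of Emcn and Tek include 2-fold changes. All 4 intervals use a spread pooled over all ages, 0.83, 0.60, 0.34 and 0.54 in the same order. At E15.5 alone the log2 SD was larger, at 1.55, 1.17, 0.66 and 1.14, and at P14 it was between 0.07 and 0.25. A 2-fold change of Cdh5 or Pecam1 is therefore not excluded either. None of 13 blood endothelial genes, a list that includes Emcn, Pecam1 and Cdh5, was called by limma. Angptl7 lost its call without E15.5 replicate 2 (1.79) or replicate 3 (1.61) and without P14 replicate 1 (1.62) or replicate 3 (1.76). Vegfa fell short of 1 unit without E15.5 replicate 2 (-0.94) or P14 replicate 1 (-0.89), and Vegfc without E15.5 replicate 1 (-0.98), E15.5 replicate 3 (-0.87) or P14 replicate 3 (-0.95). Median scaling gave -0.97 for Vegfa and -0.99 for Vegfc, below the size needed.

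From P7 to P28, a span that includes eyelid opening, Kdr fell by 1.47 (SE 0.18, adjusted p = 1.8e-06) and Vegfa by 1.03 (SE 0.22, adjusted p = 6.4e-04), so that 2 of 9 fell, against 4.57% of all genes, and none rose, against 5.95%, or 10.5% in either direction. All 3 P28 arrays lay below all 3 P7 arrays for both, and the share of all genes that do so was not counted. Vegfc gave -0.71 (adjusted p = 0.0116), Angptl7 1.01 (SE 0.55, adjusted p = 0.163) and Emcn -0.40 (adjusted p = 0.66). The VEGF co-receptor genes Nrp1 and Nrp2 fell by 2.26 and 1.64, and Angpt2 gave -2.21 (called). Of 10 anti-angiogenic factor genes, Thbs2 (-2.71), Sema3a (-2.12) and Thbs1 (-1.06) fell. Epas1, a hypoxia-inducible factor gene, rose by 2.04 among 11 hypoxia response genes, of which 2 rose and 1 fell. Over the same span 3 of 8 keratocyte genes fell (list median -0.99) and 4 of 6 corneal endothelial genes (-1.34), and 2 of 8 corneal epithelial genes rose (0.86), and their part in these values was not tested. The fall of Vegfa was under 1 unit without P7 replicate 1 (-0.96), P7 replicate 3 (-0.92) or P28 replicate 2 (-0.87).

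Set from embryo to adult, 2 months against E14.5, Angptl7 rose by 4.80 log2 units (SE 0.55, adjusted p = 1.3e-07), against 10.3% of genes called higher. Kdr fell by 1.56 (SE 0.18, adjusted p = 1.9e-07) and Emcn by 2.33 (SE 0.62, adjusted p = 0.00341). Cdh5 fell by 1.499 (SE 0.45, adjusted p = 0.00867) and Pecam1 by 1.16 (SE 0.26, adjusted p = 7.6e-04), in all 4 of 9 members, against 6.02% of all genes, or 16.3% in either direction. The arrays of both ages did not overlap for Angptl7, Kdr, Emcn and Pecam1, but those of Cdh5 did, at 84.3 to 130 against 116 to 702, and Cdh5 was not called when only these ages were fitted. The share of all genes that separate likewise was not counted. Pecam1 passed the filter partly through an E14.5 array, which favours a fall from that age. Vegfc gave -0.97 (adjusted p = 6.4e-04), just under the size needed, Tek -0.62 (adjusted p = 0.225), Vegfa -0.48 (adjusted p = 0.071) and Flt1 -0.46 (adjusted p = 0.0949). Of 13 blood endothelial genes 7 fell, among them Ramp2 by 1.86 and the members Emcn, Pecam1 and Cdh5, and none rose. The filter, which kept 13 of 22 listed genes, favours a fall for those kept through high E14.5 arrays. Of 11 hypoxia response genes 2 rose and 1 fell, with a list median of 0.17 against 0.01 for all genes. Epas1 rose by 3.87 and Egln3, a hypoxia-induced hydroxylase gene, by 4.86, whereas Slc2a1, the glucose transporter of endothelial and red cells, fell by 1.26. The red blood cell genes, 4 of 4 of which fell, summed to between 22816 and 33178 on the E14.5 arrays and between 462 and 538 on those of 2 months, and the lens genes to between 6178 and 98310 and between 2511 and 61348. All 8 corneal epithelial genes rose (list median 4.30), as did 4 of 8 keratocyte genes (1.41). The part of these lists in the result was not tested. Pecam1 was under 1 unit without E14.5 replicate 1 (-0.98) or replicate 2 (-0.98), and Cdh5 without E14.5 replicate 2 (-0.98), so 3 members were called without that array. Vegfc passed 1 unit, and was called, without E14.5 replicate 3 (-1.19) or 2 months replicate 3 (-1.02).

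**Figure D3:**
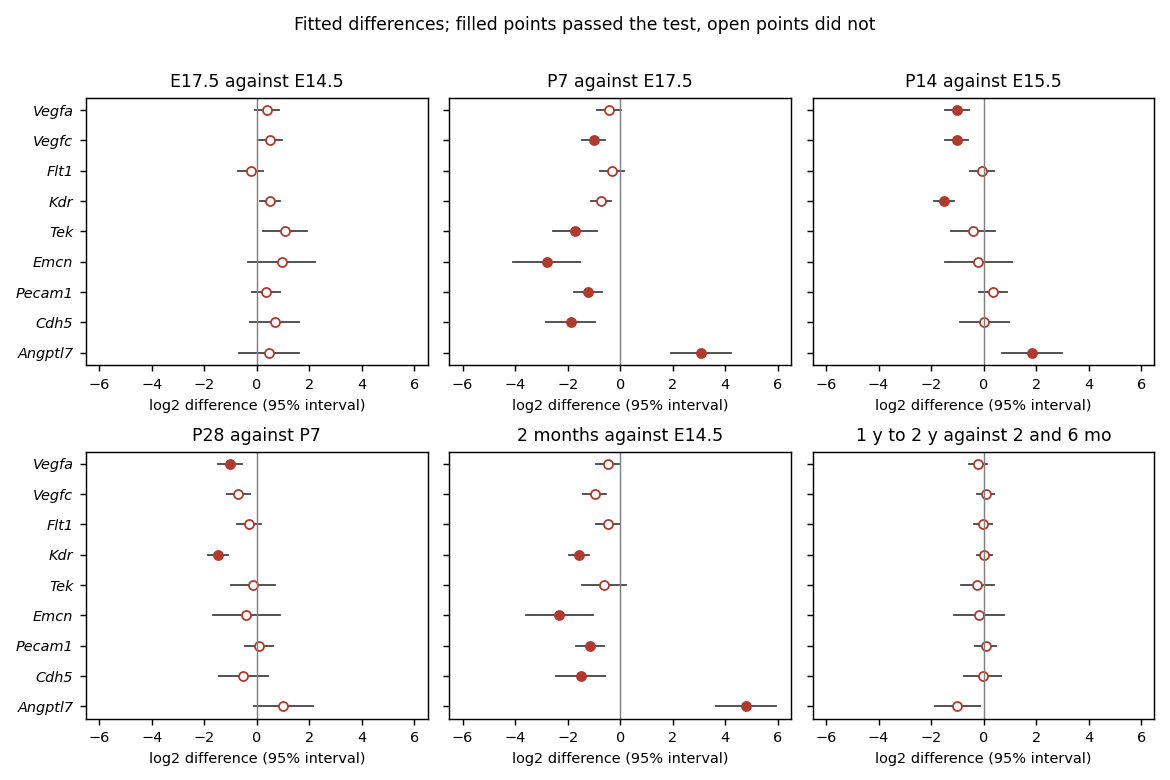
Fitted log2 differences of the 9 tested members in 6 comparisons, with 95% intervals. Filled points passed the test and open points did not. Emcn, Cdh5, Tek and Pecam1 lie to the left of 0 in P7 against E17.5 (Emcn at -2.80) while their intervals include 0 in P14 against E15.5, where Kdr lies at -1.498.

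Single steps between neighbouring ages called members 8 times. From P3 to P7 Angptl7 rose by 2.34 (adjusted p = 0.0089) and Emcn fell by 2.56 (adjusted p = 0.0101), against 1.98% of all genes called. From P14 to P28 Angptl7 rose by 1.87 (adjusted p = 0.0115), against 7.65% of genes, and the call was lost without P14 replicate 2 (1.59) or P28 replicate 3 (1.61). Kdr and Vegfa gave -0.85 (adjusted p = 0.00113) and -0.96 (adjusted p = 0.00163) at that step. From E14.5 to E15.5 Vegfa gave 0.89 (adjusted p = 0.00231) and Kdr 0.66 (adjusted p = 0.0066), both under the size needed, with all 3 E15.5 arrays above all 3 E14.5 arrays for both genes. How many of all genes separate likewise was not counted. Besides P7 to P14, no member was called between E14.5 and E15.5 (10.4% of genes), between E15.5 and E17.5 (0.569%), between E17.5 and P3 (1.89%) or between P28 and 2 months (2.12%). Without E15.5 replicate 1, the array on which Emcn, Cdh5, Pecam1 and Tek were highest, the step from E15.5 to E17.5 was 2.47 for Emcn, 1.86 for Cdh5, 1.20 for Pecam1 and 1.66 for Tek, all called, and the calls over the 11 steps numbered 16. On all arrays these differences were 1.63, 1.33, 0.90 and 1.00, not called.

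The remaining 5 calls fell among the adult ages, where each side has 2 or 3 arrays. Angptl7 fell by 2.24 from 2 to 6 months (SE 0.62, adjusted p = 0.0459), against 1.25% of genes called, and the call was lost in each of several refits, among them without 6 months replicate 1 (-1.71) and without 2 months replicate 2 (-1.95). Kdr rose by 1.31 from 6 months to 1 year (adjusted p = 0.00592), against 0.208% of genes, and fell by 1.58 from 1 year to 18 months (adjusted p = 5.6e-04), against 0.854%. Vegfa fell by 1.36 from 1 year to 18 months (adjusted p = 0.00902) and rose by 1.49 from 18 months to 2 years (adjusted p = 0.00523), against 0.446%. Without 1 year replicate 1, the rise of Kdr was 0.90 and the fall of Vegfa 1.12 in size, -1.12 on the log2 scale, and neither was called. That fall of Vegfa was also not called without 18 months replicate 1 (-1.49) or replicate 2 (-1.22). The rise of Vegfa from 18 months was 1.08 without 2 years replicate 1 and 1.35 without 18 months replicate 2, and was not called in either.

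Over the adult arrays as a whole, genes of the corneal endothelium, the pump layer at the back of the cornea, varied as well. The 6 tested genes of that list, Slc4a11, Col8a1, Col8a2, Slc4a4, Car12 and Cdh2, summed to 1448 to 1960 at P28, 3877 to 5466 at 2 months, 1076 to 1695 at 6 months, 2246 to 3612 at 1 year, 660 to 758 at 18 months and 760 to 1912 at 2 years. The sums were thus lowest at 18 months, the age at which Angptl7 had its lowest adult mean and Kdr and Vegfa their lowest mean of all ages, but they were lower at P28 than at 2 months while Angptl7 was high at both. Within 2 years, replicate 2 had the higher Angptl7 value (2037 against 341) and the higher sum (1912 against 760), while Vegfa was higher on replicate 1 (455 against 248). Both 6 months arrays carried genes of other tissue, the retina list being high on replicate 1 and the lens list on replicate 2. Other adult ages did as well. The lens genes summed to 4651 to 44928 at 6 months, 2511 to 61348 at 2 months and 4952 to 27395 at P28. The retina genes summed to 5254 to 23127 at 6 months, 1811 to 8867 at 2 months and 4594 to 5644 at 2 years. The 8 keratocyte genes varied over these ages too. They summed to 16198 to 18507 at P28, 16479 to 21638 at 2 months and 4726 to 8486 at 6 months. At 1 year the sums were 12271 to 16569, at 18 months 4701 to 6588 and at 2 years 3192 to 11184. The part of these tissues and cells in the adult values was not tested.

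Between younger and older adults, the 3 oldest ages averaged and set against 2 and 6 months averaged, none of 9 members was called by limma, against 0.677% of all genes, and 1, Angptl7, had an unadjusted p under 0.05. It gave -1.01 (SE 0.41, adjusted p = 0.175), and without 2 years replicate 2 it gave -1.43 and was called. The endothelial genes gave differences between -0.25 for Tek and 0.08 for Pecam1, and Kdr gave 0.02 (95% interval -0.26 to 0.30).

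Over all 12 ages 8 of 9 members changed by the F-test of limma, against 40.6% of all genes, with Flt1 the exception. Within E14.5 to P14, on one side of the division of the arrays, the same test called 8 of 9, against 19.6%. Its spread is pooled over all 12 ages. With only these ages fitted, Cdh5 and Tek were not called by the F-test (adjusted p = 0.0888 and 0.0813). Both also lost the call without E17.5 replicate 3. Pecam1 and Tek entered the test only through a few high arrays of E14.5 to P3. The filter thus favours a change for them over all 12 ages and over E14.5 to P14. Within P28 to 2 years the F-test called 3 of 9, against 6.77%. Angptl7 spanned 3.24 log2 units (adjusted p = 0.0035), Kdr 1.58 (adjusted p = 2.2e-04) and Vegfa 1.54 (adjusted p = 9.6e-04). In that later span Emcn covered 0.47, Pecam1 0.50, Tek 0.48 and Cdh5 0.21 log2 units, none of them called.

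**Figure D4:**
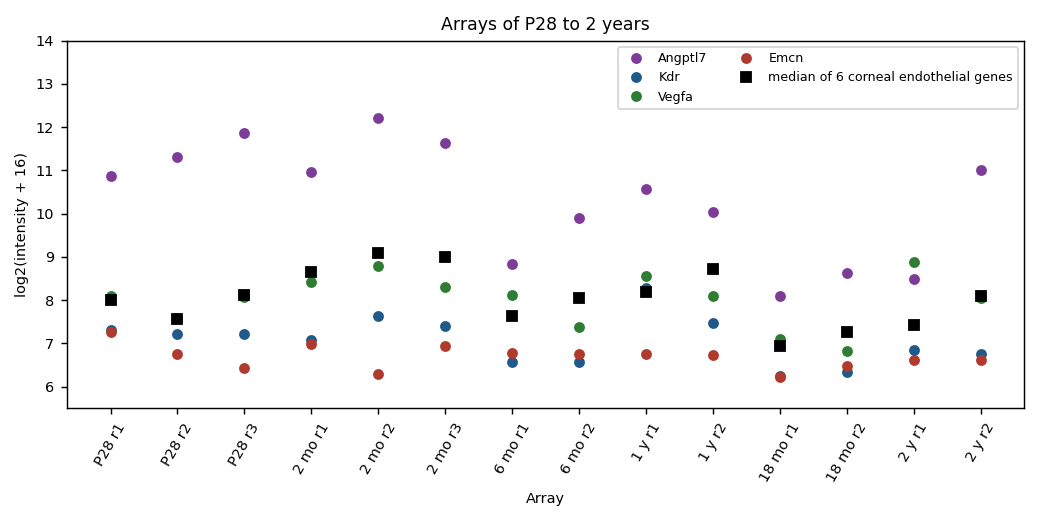
Values of 4 members and the median of 6 corneal endothelial genes, in log2(intensity + 16), on the 14 arrays of P28 to 2 years, with r for replicate. Angptl7, Kdr, Vegfa and the corneal endothelial genes are all low at 18 months, while Emcn stays at an intensity of 58.8 to 136 throughout.

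The isolated layers have 1 array each, of different ages and dissection methods, so no test was made. Their lowest intensities, 41.8 and 42.6, and their medians, 318 and 321, were higher than those of whole cornea, so each gene is given by its percentile among the single-gene probe sets of its own array. The marker genes matched the labels in part: Krt12 read 15153 in epithelium and 2185.1 in stroma, Kera 158 and 3433, and Lum 143 and 2109, while Krt14 read 2244 and 2673, so epithelial transcripts were present on the stroma array. None of the 10 members differed by 4-fold between the layers, where 0.576% of 11107 genes above the median on either array were that much higher in epithelium and 1.37% that much lower.

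All 10 members had a lower intensity in epithelium than in stroma, although by percentile Vegfc stood higher in epithelium (31.1 against 30.8). The share of all genes lower in epithelium by any amount was not counted. Angptl7 showed the largest difference, -0.85 log2 units, at 239 in epithelium (27.0 percentile) and 445 in stroma (62.8 percentile). On whole cornea it stood between the 91.6 and 97.1 percentile at P28 and between the 69.4 and 96.7 percentile at P7, above the layer array of the same age in each case. Vegfa stood at the 69.4 percentile in epithelium (488) and the 80.6 in stroma (679), and Kdr at the 36.5 (277) and 50.6 (360). Emcn, Pecam1 and Tek read 223, 195 and 209 in epithelium and 258, 264 and 277 in stroma, at or below the 34.2 percentile on either array, and Cdh5 stood at the 39.2 and 50.1. The differences between layers lay between -0.85 and -0.03, and with the arrays scaled to a common median Vegfc gave 0.03, so its direction depended on the scaling.

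**Figure D5:**
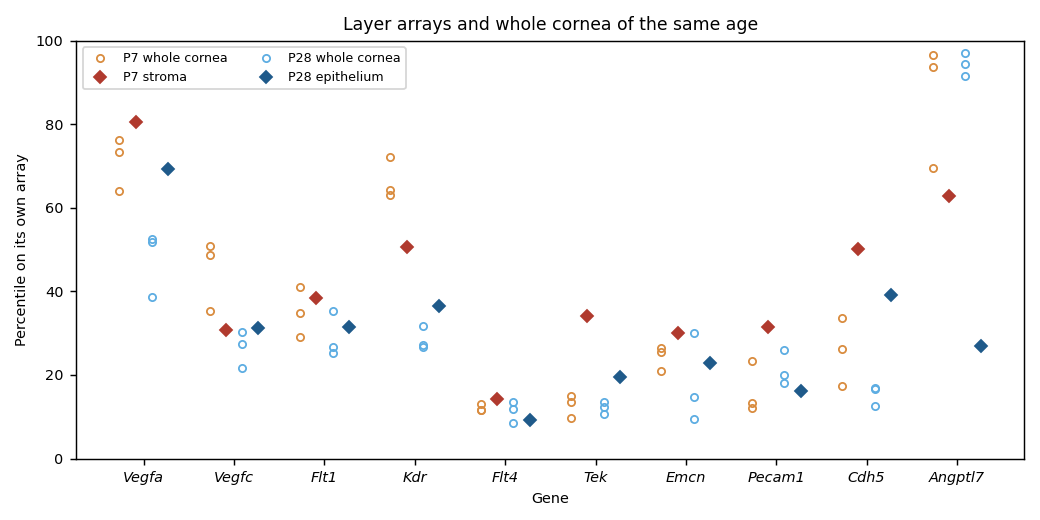
Percentile of each gene among the single-gene probe sets of its own array. Diamonds are the arrays of P7 stroma and P28 epithelium, and circles the 3 whole-cornea arrays of each of those ages. Angptl7 stands between 91.6 and 97.1 in whole cornea of P28 and at 27.0 in the epithelium of that age.

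Other genes took courses like those of the members. Over the 12 age means of log2 values, given as a description, the genes most like the mean of Emcn, Pecam1, Cdh5, Kdr, Flt1 and Tek were Aplnr (r = 0.98), Rasgrp3 (0.97), Cxcr4 (0.97), Pkia (0.97) and Rarb (0.97). Aplnr, the apelin receptor gene of growing vessels, and Cxcr4, a chemokine receptor gene, had fitted mean intensities of 796 and 393 at E17.5, 171 and 277 at P7, and 353 and 316 at P14. For Vegfa they were Trip6 (r = 0.96), Hykk (0.95), Denn2b (0.95), Aff2 (0.95) and Ano6 (0.95). Those most like Angptl7 were Slc4a11 (r = 0.90), the transporter gene of the corneal endothelium, Fam204a (0.89), Itga3, an integrin subunit gene (0.87), Mettl27 (0.87) and Abca8a (0.86). Slc4a11 had fitted mean intensities of 70.0 at E14.5, 161 at P3, 599 at P7, 640 at 2 months and 121 at 18 months. The points of each correlation share the arrays, and r was chosen as the highest among 12998 genes.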

How the data were processed

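Per the submitters' processing notes, the authors made the deposited intensities with Affymetrix Expression Console 1.1 and PLIER; the settings and any genome build are not given in the sources used here. The table held 35557 probe sets on 34 arrays, of which 21789 had 1 gene symbol in the platform annotation, 1621 several and 12147 none. Probe sets with 1 symbol that lay above the array median on at least 2 of 32 whole-cornea arrays were kept (14329), and the one with the highest mean stood for its gene, leaving 12998 genes. The offset of 16 was added before log2. The fit used limma 3.58.1 (R 4.3.3): lmFit with 1 mean for each age over 32 arrays, then eBayes, two-sided. It had 20 residual degrees of freedom and 4.1 from the prior. The layer arrays entered no fit. Comparisons are those given in the report. The code was tested on simulated data. The number of arrays limits the precision. Named genes are the 10 members, up to 4 called genes of a list with the largest difference per comparison, and the 5 genes most like a profile. Members and lists were chosen with earlier results of these data known. Arrays were called rich in a tissue where the median of its list lay at least 2 log2 units above its median over the 32 arrays, a rule added after seeing the data. Alternatives tried are given in the closing section.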

Additional observations from a re-analysis of the deposited data

How the results depend on the processing

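Changing 1 choice at a time, no call reversed, and 4341 of 4476 values of single members kept their side of the threshold. The number of members called in E17.5 against E14.5 was 0, and it was 1 (Tek) with no filter, with array weights and with the replicate block, and 1 (Kdr) with no fold threshold. In P7 against E17.5 it was 6, and 3 without the arrays rich in skeletal muscle genes and 1 without those rich in pigment cell genes. In P14 against E15.5 it was 4, and 2 with an offset of 64 and 2 with median scaling. In P28 against P7 it was 2, and 1 with an offset of 64. Over the 11 steps 8 calls became 17 with array weights, whose estimation stopped before convergence, and 14 with no fold threshold. Leaving out each array in turn gave 0 to 1 members called for E17.5 against E14.5, 5 to 6 for P7 against E17.5, 2 to 4 for P14 against E15.5, 1 to 2 for P28 against P7, 3 to 6 for 2 months against E14.5, 0 to 1 for the older against the younger adults, 5 to 16 over the steps, 8 to 9 for the 12 ages, 6 to 8 for E14.5 to P14 and 3 to 3 for P28 to 2 years. Where that leaves an age with 1 array, it is assumed to vary like the others. The causes were not tested. The deviations of same-numbered arrays of different ages had a median r of -0.01 over 160 pairs, 28 of them above 0.1. Single pairs ran from -0.43 to 0.40, and pairs of different numbers had a median of 0.0066. Nothing in the labels says whether same-numbered arrays share more than that number. The replicate block changed the calls of Tek above and of Angptl7 from 2 to 6 months (-2.20, lost). Leaving out the arrays rich in red blood cell genes could not be run, since those are all 3 of E14.5. No detection calls were used here, so low intensities cannot be told from background.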
